A study of Mus musculus with 30 samples.

Results

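Oil-treated newborn female mice were compared between 12 h and 6 h after injection, which describes how hypothalamic gene expression changed with time in mice that received no hormone. The comparison rests on 6 of the 30 arrays of the series, 3 titled as oil at 12 h and 3 titled as oil at 6 h, and the groups were taken from those titles. All mice were C57BL/6J females. Each was given a subcutaneous injection on the day of birth, either of 20 μl peanut oil alone or of 7.5 μg estradiol benzoate (EB, an esterified estrogen) in the same volume, and the whole hypothalamus was collected 1, 3, 6, 12 or 24 h later, with 3 mice in each of 10 groups. The 6 EB-treated mice of 6 h and 12 h were compared to see whether the same changes with time were found in other animals. All 30 arrays also entered the scaling, the filter on dim probe sets and the estimate of spread behind the p-values for genes. The mice were kept in 14 h of light and 10 h of darkness. No source used here gives the hour of injection or the litters, so age in hours, time since the injection and time of day cannot be told apart.

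The hypothalamus of the newborn mouse holds neurons that are already born but still forming synapses. Synaptic vesicles store transmitter at nerve endings, and their proteins accumulate as neurons mature. Hypothalamic neuropeptide genes such as Hcrt, Pmch, Crh, Trh, Oxt and Sst mark separate small populations of neurons that act in feeding, arousal, stress and pituitary control. In whole tissue, a change in the number of such cells and a change in RNA per cell cannot be told apart.

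The arrays themselves differed between the groups before any gene was considered. The median deposited signal ranged from 36.5 to 36.9 at 6 h and from 61.5 to 66.9 at 12 h in oil-treated mice, a 1.77-fold difference in means, and from 35.3 to 44.0 and from 52.9 to 62.5 in EB-treated mice. Bacterial control transcripts added at hybridization were 1.37-fold brighter at 12 h than at 6 h. The 3′ to 5′ ratio of Gapdh was 0.659 to 0.684 at 6 h and 0.711 to 0.727 at 12 h, and that of actin was 1.33 to 1.37 and 1.38 to 1.41. The scaled signal of 18S ribosomal RNA was 863 to 1010 at 6 h and 474 to 690 at 12 h. Each of these 5 quantities gave p = 0.1 in a two-sided exact permutation test, the smallest p that 3 arrays against 3 allow. Before any comparison the arrays were therefore brought to a shared median of 41.3, which is the average over the 30 arrays, and all levels below are such scaled signals. The part of array brightness and RNA composition in the results was not tested, and p-values for genes rest on the spread between mice within the 10 groups.

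**Figure D1:**
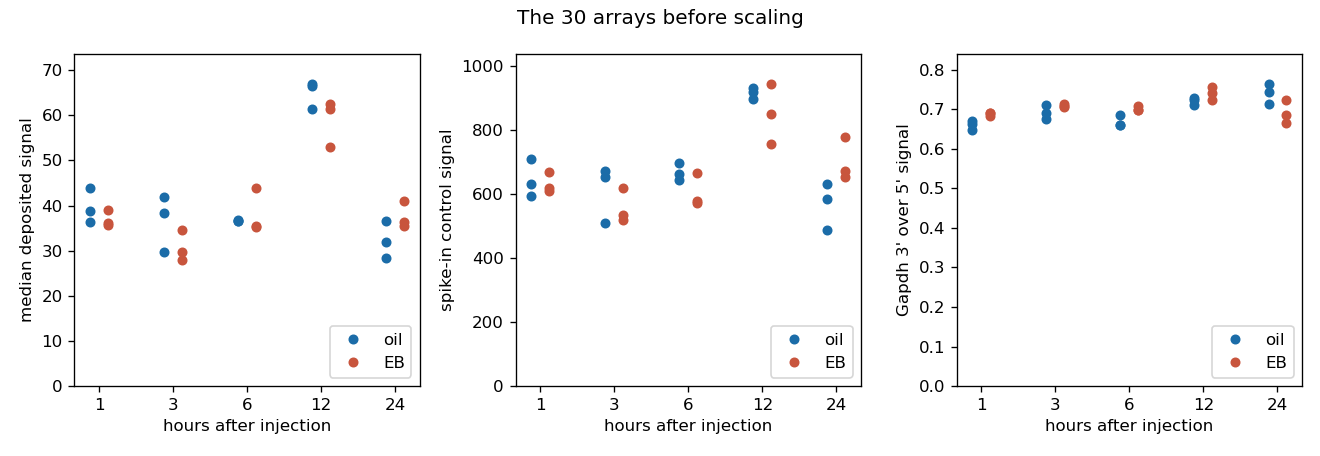
Median deposited signal, geometric mean signal of the hybridization controls bioB, bioC and bioD (both in signal units) and the 3′ over 5′ signal ratio of Gapdh on the y axes, against hours after injection on the x axes. Each point is 1 of the 30 arrays, blue for oil and red for EB. The 12 h arrays of both treatments had the highest medians, 52.9 to 66.9.

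Replicate 2 of the oil group at 6 h stood apart. It held Neurod6, a transcription factor gene of cortical neurons, at 899, whereas the other 29 arrays reached at most 123. Its level of Bpifa1, a secreted protein of nasal and airway epithelium, was 434 against at most 16 elsewhere. The summed level of 8 cortex and hippocampus markers was 3060 in this array and 1190 and 1250 in the other arrays of its group, and it ranged from 1080 to 1210 at 12 h. The 14 leptomeningeal fibroblast markers summed to 8140 in it, against 3660 and 6350 in the other 6 h arrays. Results are therefore also given without it. Of the 18 hypothalamus markers, 16 passed the filter on dim probe sets, among them Nkx2-1, Otp, Sim1 and Isl1, and of the 8 pituitary markers on the array 0 did.

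At 12 h, 1885 of 27022 probe sets were higher than at 6 h (6.98%) and 650 were lower (2.41%) in oil-treated mice (adjusted p under 0.05 from limma). The higher probe sets belonged to 1545 genes and the lower to 471. The median log2 change was 0.467 among the higher probe sets and -0.554 among the lower, and 0.06 over all probe sets tested. In terms of the ratio of mean signals, 69 probe sets reached 2-fold (0.255%) and 48 fell to 0.5-fold or less (0.178%). The 12 h arrays lay wholly above the 6 h arrays for 21.3% of probe sets and wholly below for 9.79%. Without replicate 2 of 6 h the counts were 864 higher and 295 lower, without replicate 1 of 12 h they were 1092 and 309, and without replicate 3 of 12 h they were 622 and 193. The lower count also moved when replicate 3 of 6 h was left out, to 404.

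The balance of directions depended on the scaling. With quantile normalization, 1117 probe sets were higher and 1166 lower, so that 48.9% of the called probe sets were higher in place of 74.4%. The median change grew with the signal, from 0.005 in the dimmest 20% of the probe sets to 0.094 in the brightest 20%, and it lay between -0.0079 and 0.009 in all 5 such classes after quantile normalization. Of the 1885 higher probe sets 1075 remained higher under quantile normalization, and of the 650 lower ones 631 remained lower. Which genes moved relative to others is therefore reported here, rather than how many moved each way.

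The called probe sets followed the 12 h arrays more than the 6 h arrays. Among the 5 oil groups, 12 h had the highest mean for 90.2% of the higher probe sets, and 6 h had the lowest for 56.9%. For the lower probe sets, 12 h had the lowest mean for 95.7% and 6 h the highest for 19.2%. Over all probe sets tested, 12 h was highest for 36.8% and lowest for 20.3%, and 6 h was lowest for 20.6% and highest for 14.5%. These shares describe arrays that also chose the probe sets, so they carry no test.

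Other probe sets of the called genes showed smaller changes. The genes with a higher probe set had 1453 other probe sets, whose median log2 change was 0.099, and 34 of these (2.34%) were called lower. The genes with a lower probe set had 1080 others with a median of -0.032, of which 34 (3.15%) were called higher. Of 904 higher genes with more than 1 probe set kept, 171 had 2 or more called higher, and of 443 such lower genes 63 had 2 or more called lower. In the gene lists below each gene is read from its brightest probe set.

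Synaptic vesicle genes were higher at 12 h. Of 21 genes tested, 12 rose and 0 fell (57.1% against a background of 6.98%), with a median log2 change of 0.40, and all 21 had a change above 0. The vesicle membrane protein gene Syp read 911, 796 and 915 at 6 h and 1580, 1630 and 1780 at 12 h. The groups did not overlap, and the log2 change was 0.93 (standard error 0.12, adjusted p = 3.9e-05). Syn1, which encodes the vesicle phosphoprotein synapsin I, read 371, 332 and 374 and then 645, 645 and 758. Its log2 change was also 0.93 (standard error 0.15, adjusted p = 0.00048), and every 12 h array exceeded every 6 h array.

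Genes of vesicle fusion moved with them. Vamp2, a vesicle SNARE, read 927, 856 and 916 at 6 h and 1220, 1360 and 1310 at 12 h, a log2 change of 0.53 (standard error 0.093, adjusted p = 0.00076). Syt11, of the synaptotagmin family, read 1550, 1360 and 1510 and then 2130, 2120 and 2360, a log2 change of 0.58. Smaller changes were found for Syt1, the calcium sensor of release (0.35), Stx1a, a plasma membrane SNARE (0.40), and Rab3a, a vesicle GTPase (0.47). The active zone genes Rims1 and Unc13a rose by 0.53 and 0.44, and Sv2b, a vesicle glycoprotein gene, rose by 0.50. Snap25, the partner SNARE, had a log2 change of 0.12 (adjusted p = 0.34), and Syn2 had 0.14 (adjusted p = 0.50).

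Slc32a1 and Gad1, of GABA neurons, were also in this list. Slc32a1, the vesicular GABA transporter, read 414, 558 and 396 at 6 h and 687, 856 and 667 at 12 h, a log2 change of 0.70 (standard error 0.19, adjusted p = 0.021). Gad1, an enzyme of GABA synthesis, read 2710, 3070 and 2640 and then 3470, 3800 and 3680, a change of 0.38. Their groups did not overlap, but Slc32a1 was called in 2 and Gad1 in 1 of the 6 fits without an array. Slc17a6, the vesicular glutamate transporter of hypothalamic neurons, had a change of 0.23 (adjusted p = 0.36).

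Syp, Syn1, Vamp2 and Syt11 stayed called without any 1 of the 6 arrays. The count over the list was less stable, at 8 without replicate 2 of 6 h, 7 without replicate 3 of 6 h, 7 without replicate 2 of 12 h and 4 without replicate 3 of 12 h, and at 9 with quantile normalization. Of 12 general neuron markers 3 rose (25%, background 6.98%), with a median of 0.15, or 0.068 with quantile normalization. Elavl3 and Nefl rose by 0.51 and 0.56, whereas Tubb3 had a change of 0.04 and Map2 of -0.02. The neuron marker count was 1 without replicate 3 of 6 h, 1 without any 1 of the 12 h arrays, and 2 without either of the other 6 h arrays.

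**Figure D2:**
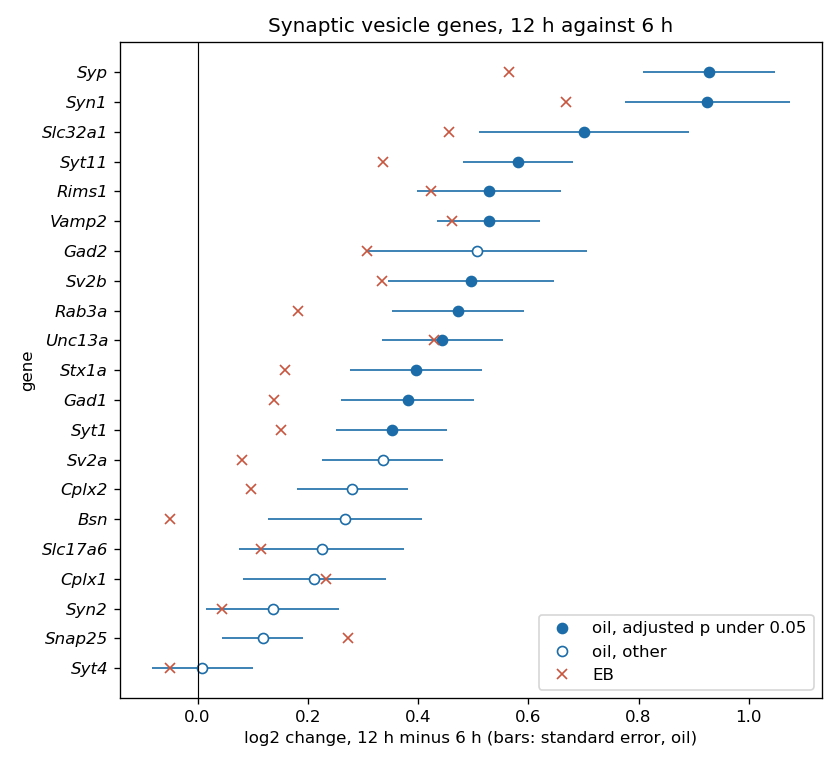
Log2 change from 6 h to 12 h (x axis) of the 21 synaptic vesicle genes (y axis), each by its brightest probe set. Blue circles are oil-treated mice, 3 at each time, with bars of 1 standard error, filled where the adjusted p was under 0.05, and red crosses are EB-treated mice. All 21 oil values lie above 0, and Syp and Syn1 lie farthest to the right at 0.93.

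In the 250 bases before the start of Syn1, given because synapsin I was among the genes with the largest change of the list, the letters TGACGTCA occurred once. This palindrome is the full site of CREB family factors and reads the same on both strands. The sequence, from RefSeq (GRCm38.p6, chrX:20920919-20921168, minus strand), ends at the base before the start, and the motif is in capitals.
Syn1: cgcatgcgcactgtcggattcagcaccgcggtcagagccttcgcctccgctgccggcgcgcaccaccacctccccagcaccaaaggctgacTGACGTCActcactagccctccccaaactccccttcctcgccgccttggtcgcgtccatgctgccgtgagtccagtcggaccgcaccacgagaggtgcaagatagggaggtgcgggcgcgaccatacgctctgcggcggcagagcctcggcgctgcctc
The motif began 159 bases before the start. Of the 11 called vesicle genes with a promoter in the table, Syn1 was the 1 that held it, and of 32851 promoter windows of this length 1.55% did. The motif was chosen for these genes after their values were seen.

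Neuropeptide genes were also higher at 12 h. Of 22 tested, 6 rose and 0 fell (27.3%, background 6.98%), the median was 0.25, and the same count of 6 was found with quantile normalization. The largest changes were in genes of lateral hypothalamic neurons and of the stress axis. Hcrt, the precursor of the arousal peptides orexin A and B, read 58.8, 58.5 and 47.3 at 6 h and 159, 167 and 146 at 12 h. The 12 h arrays were all above the 6 h arrays, and the log2 change was 1.53 (standard error 0.34, adjusted p = 0.0057). Pmch, the precursor of melanin-concentrating hormone, read 729, 438 and 670 and then 1120, 1310 and 1110, without overlap. Its log2 change was 0.98 (standard error 0.26, adjusted p = 0.018), and 0.75 (adjusted p = 0.13) without replicate 2 of 6 h.

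Crh, which encodes corticotropin-releasing hormone, read 21.9, 131 and 29.5 at 6 h and 139, 159 and 125 at 12 h. Replicate 2 of 6 h, the array that stood apart, lay within the range of the 12 h arrays. The log2 change was 1.68 with that array (standard error 0.45, adjusted p = 0.018) and 2.46 without it (adjusted p = 0.00089). The Crh call was lost when any 1 of the other 5 arrays was left out, with changes no lower than 1.18.

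The remaining peptide genes rose by 1.44- to 1.5-fold. Sst, the precursor of somatostatin, which inhibits growth hormone release, read 506, 456 and 471 at 6 h and 673, 707 and 679 at 12 h, a 1.44-fold rise (log2 0.52, standard error 0.12, adjusted p = 0.0051). Oxt, the oxytocin precursor, read 188, 198 and 171 and then 296, 279 and 256, a 1.49-fold rise. Trh, the precursor of thyrotropin-releasing hormone, read 123, 123 and 110 and then 165, 183 and 188, a 1.5-fold rise. In all of these the 3 later mice lay above the 3 earlier ones. Hcrt and Sst were called without any 1 of the 6 arrays, Oxt in 5 of 6 such fits, Pmch in 3 and Trh in 2. The list count fell to 3 without replicate 2 of 12 h and to 3 without replicate 3 of 12 h.

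Other peptide genes did not pass the test. Gal (galanin) had a log2 change of 0.31 (adjusted p = 0.064), Tac1 0.41, Vip 0.40 and Nts 0.40. Avp (vasopressin) had -0.32 (adjusted p = 0.35), Npy -0.23 and Pomc 0.03. Gnrh1, Kiss1 and Agrp were among 6 listed genes that were not tested, since they had no probe set of that symbol alone past the filter on dim probe sets.

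Over the 5 oil groups the called peptide genes had their highest mean at 12 h, as did 36.8% of all probe sets. They were called for a rise at 12 h, which favours this, so it carries no test. Hcrt averaged 79.4 ± 16.2 (SD, n = 3) 1 h after the injection and 98.0 ± 18.6 after 3 h, was 54.9 ± 6.55 by 6 h, stood at 157 ± 10.6 after 12 h and came to 93.2 ± 40.5 by 24 h. For Hcrt, Pmch, Crh and Trh the 6 h mean was also the lowest of the 5, as it was for 20.6% of all probe sets. Sst averaged 447 ± 17.4, 470 ± 39.1 and 478 ± 26 at the earliest 3 times, which do not differ beyond their spread, then 686 ± 18 after 12 h and 530 ± 53.8 after 24 h. Oxt averaged 159 ± 34.0, 171 ± 20.1, 186 ± 13.7, 277 ± 20.3 and 196 ± 13.5 at the same times, so that only its 12 h level lay beyond the spread of its neighbours.

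**Figure D3:**
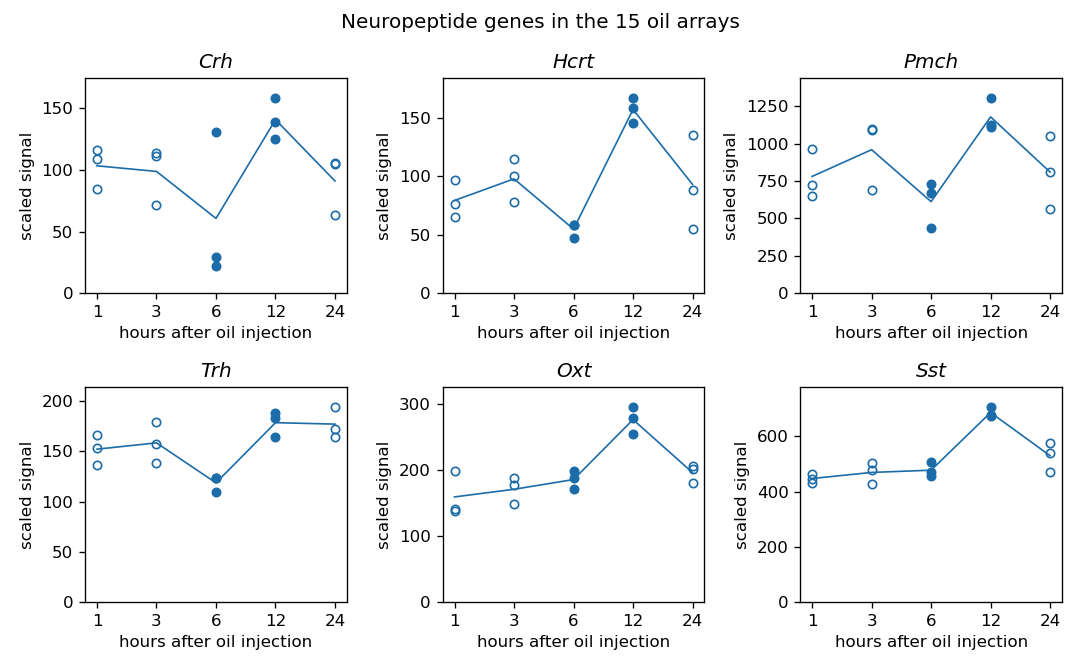
Scaled signal (y axes, starting at 0) of the 6 neuropeptide genes that rose, against hours after oil injection (x axes, not to scale). Each circle is 1 mouse, filled for the times compared here, and lines join the means of 3 mice. Hcrt lies between 47.3 and 58.8 at 6 h and between 146 and 167 at 12 h, whereas 1 of the 6 h arrays of Crh lies at 131, among the 12 h values.

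The promoter of Sst is the textbook site of the same CREB motif and is given for that reason. Its 250 bases before the start (RefSeq, GRCm38.p6, chr16:23890845-23891094, minus strand) read as follows, with TGACGTCA in capitals.
Sst: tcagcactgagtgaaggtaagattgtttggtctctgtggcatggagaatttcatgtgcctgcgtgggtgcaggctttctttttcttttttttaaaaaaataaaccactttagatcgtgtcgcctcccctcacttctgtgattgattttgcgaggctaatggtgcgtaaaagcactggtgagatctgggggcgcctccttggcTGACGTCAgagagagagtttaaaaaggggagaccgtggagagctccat
The motif began 48 bases before the start. Hcrt, Pmch, Oxt and Trh had no match in this window. Among the other peptide genes tested, 1 of 14 with a promoter held a match.

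Cholesterol synthesis genes shifted upward by small amounts. Of 20 tested, 3 rose and 0 fell (15%, background 6.98%), the median was 0.26, and 19 had a change above 0. Among the brightest 20% of all probe sets 713 of 5405 were called higher. Dhcr7, the last enzyme of the Kandutsch-Russell route, read 246, 228 and 267 at 6 h and 407, 421 and 406 at 12 h, a 1.67-fold rise (log2 0.74, standard error 0.13, adjusted p = 0.00069). Srebf2, the transcription factor that drives this pathway, read 202, 184 and 182 and then 319, 276 and 255, a 1.49-fold rise (adjusted p = 0.01). Pmvk, phosphomevalonate kinase, rose by 0.345 on the log2 scale (adjusted p = 0.039; 0.12 with quantile normalization), a call lost without any 1 array. In 15 of the 20 genes the 12 h arrays lay wholly above the 6 h arrays, against 21.3% of all probe sets. Dhcr7 was called without any 1 of the 6 arrays, and the list count was 1 without replicate 1 of 12 h.

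The letters ATCACNCCA, the sterol regulatory element bound by SREBP factors, were searched on both strands of the same windows. Srebf2 held a match and Dhcr7 and Pmvk did not. No other member of the list with a promoter held it (0 of 13), and 0.712% of all windows did. The Srebf2 window (RefSeq, GRCm38.p6, chr15:82147019-82147268, plus strand), given because it carries that match, reads as follows with the match in capitals, 163 bases before the start.
Srebf2: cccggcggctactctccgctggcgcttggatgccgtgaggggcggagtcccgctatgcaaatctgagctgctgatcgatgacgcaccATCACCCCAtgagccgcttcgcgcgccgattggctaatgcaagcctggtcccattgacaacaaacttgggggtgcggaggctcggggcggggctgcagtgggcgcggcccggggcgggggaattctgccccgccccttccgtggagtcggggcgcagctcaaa

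Of 20 glycolysis and hypoxia genes, 3 rose and 0 fell (15%, background 6.98%, or 713 of 5405 among the brightest 20% of probe sets). The median was 0.20, and it was 0.093 with quantile normalization and 0.12 when the probe sets of each gene were averaged. Pkm (pyruvate kinase) read 627, 626 and 594 at 6 h and 879, 870 and 999 at 12 h, a log2 change of 0.57 (standard error 0.12, adjusted p = 0.0031). Hk1, the hexokinase of brain, rose by 0.46 (adjusted p = 0.0021), and Slc2a3, the neuronal glucose transporter, by 0.39 (adjusted p = 0.049; 0.15 with quantile normalization), a call lost without any 1 array. The hypoxia-inducible genes Vegfa, Egln3, Bnip3 and Ankrd37 did not pass, with changes of 0.38, -0.15, 0.22 and -0.05. The hypoxia response core ACGTG lay in the windows of 1 of the 2 called genes with a promoter and of 14 of 16 other members, against 16.6% of all windows.

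Nuclear receptor genes were tested as a list of 8, of which 3 rose and 0 fell (37.5%, background 6.98%). The median was 0.21, and 0.078 when the probe sets of each gene were averaged. Esrrg, an orphan estrogen-related receptor, read 90.3, 118 and 101 at 6 h and 188, 183 and 171 at 12 h, a log2 change of 0.82 (standard error 0.18, adjusted p = 0.0052). Pgr, the progesterone receptor, an estrogen-induced gene, read 121, 96.4 and 105 and then 135, 158 and 161, a change of 0.50 (adjusted p = 0.023). Thra, the thyroid hormone receptor α, rose by 0.28 (adjusted p = 0.041). Esr1, the estrogen receptor α, had a change of 0.20 (adjusted p = 0.59). Esrrg was called without any 1 of the arrays. The list count fell to 1 without replicate 2 of 6 h, replicate 3 of 6 h, replicate 2 of 12 h or replicate 3 of 12 h.

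The list of the unfolded protein response had 4 higher and 0 lower genes of 22, with a median of 0.19. The higher share was 18.2%, against a background of 6.98%, or 713 of 5405 among the brightest 20% of probe sets. The 4 were Creld2 (0.53), Hsp90b1 (0.42), Manf (0.33) and Dnajb9 (0.24), all of the endoplasmic reticulum. Hspa5, the main chaperone of that compartment, had 0.08 (adjusted p = 0.71), and Ddit3 had 0.33 (adjusted p = 0.15). The count did not hold: 1 was called with quantile normalization, 0 without replicate 2 of 6 h, 0 without replicate 2 of 12 h and 1 without any 1 of the other arrays. In the heat shock list 1 of 20 rose (5%, background 6.98%), with a median of 0.06. It was Dnajb4 (0.26), which was not called when any 1 array was left out.

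Clock genes did not pass the test. Of 19 core clock genes 0 rose and 0 fell by limma, with 3 at an unadjusted p under 0.05. The median log2 change was -0.08 and the changes ran from -0.61 to 0.43. Per1 and Per2, whose transcripts rise and fall daily in the adult clock, had changes of -0.01 (adjusted p = 0.99) and -0.27 (adjusted p = 0.34), Dbp -0.11, Arntl (Bmal1) -0.16 and Clock 0.39 (adjusted p = 0.11). The lowest were Bhlhe40 at -0.61 (adjusted p = 0.071) and Nr1d2 at -0.45 (adjusted p = 0.098). In 3 of the 19 the 12 h arrays lay wholly below the 6 h arrays, against 9.79% of all probe sets. With quantile normalization 1 clock gene was called lower (Nr1d2, adjusted p = 0.048). A fit of the 6 oil arrays alone called 2 lower, where 444 of 27022 probe sets were lower. Array weights also gave 2 lower, against 1440 of all probe sets. With the 15 oil arrays, or with scaling to a 2% trimmed mean, 1 was called lower. Without replicate 2 of 6 h 1 was called lower, and without replicate 2 of 12 h 1 was called higher.

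Genes that respond to handling or stress had few calls. Of 20 immediate early genes 1 rose (5%, background 6.98%), with a list median of -0.06. It was Jund, which rose by 0.38 (adjusted p = 0.030, and 0.099 with quantile normalization). Fos had a change of -0.02, Egr1 of -0.40 and Nr4a3 of -0.80 (adjusted p = 0.10). Of 18 glucocorticoid-responsive genes 1 rose (5.56%, background 6.98%) and 0 fell, although 14 changes were below 0, with a median of -0.21. Their summed level ranged from 7230 to 7970 at 6 h and from 6100 to 6850 at 12 h. In 4 of 18 the 12 h arrays lay wholly below the 6 h arrays, against 9.79% of all probe sets. After EB the sum ranged from 6200 to 8700 at 6 h and from 6350 to 10900 at 12 h, with a median log2 change of 0.11. In oil-treated mice 4 of the 18 were called lower with array weights, against 1440 of all 27022 probe sets. With only the 15 oil arrays 4 were called lower (769 of all probe sets), and with quantile normalization 2 (1166 of all). The gene that rose was Cdkn1a, the inhibitor of cyclin-dependent kinases p21, which read 373, 364 and 298 at 6 h and 556, 603 and 564 at 12 h (log2 0.74, standard error 0.13, adjusted p = 0.00082) and was called without any 1 of the arrays. Fkbp5 had a change of 0.19, Sgk1 of -0.28 and Tsc22d3 of -0.12. Among 13 genes of fasting and lipid fuel 1 rose and 1 fell (7.69% each, backgrounds 6.98% and 2.41%). Ppargc1a, a coactivator of mitochondrial genes, rose by 0.40 (adjusted p = 0.049), a call that was lost without any 1 array and with quantile normalization. Lpl (lipoprotein lipase) read 127, 230 and 115 at 6 h and 94.6, 84.7 and 94.7 at 12 h (adjusted p = 0.0094). The high value was that of the 6 h array that stood apart, and without it the Lpl change was -0.41 (adjusted p = 0.11).

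Ribosomal protein genes tended to lie below the other genes, by an amount that depended on the scaling. Of 25 tested, 1 rose (Rps6, 0.38) and 1 fell (Rps15, -0.35), 4% each against backgrounds of 6.98% and 2.41%. The list median was -0.12, against 0.06 over all probe sets, with 21 changes below 0. With scaling to a 2% trimmed mean 14 of the 25 were called lower and 0 higher, where 1513 of 27022 probe sets were lower. With quantile normalization 2 were called lower, and the list median was -0.045 against -0.0019 over all probe sets, a smaller gap. Rps6 and Rps15 were each called in 2 of the 6 fits without an array. Their 12 h arrays lay wholly below the 6 h arrays for 13 of 25 genes, against 9.79% of all probe sets. Without scaling, where the median change of all probe sets was 0.88, Rps15 was at 0.475, so its direction in absolute signal turned while it stayed below most other genes. Respiratory chain genes changed little, with 1 of 31 called higher (3.23%, background 6.98%) and a median of 0.06. The 1 was Sdhc, a subunit of complex II, which read 895, 824 and 879 and then 1270, 1270 and 1390 (log2 0.60, standard error 0.10, adjusted p = 0.00043).

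Of 31 splicing regulators 3 were higher and 3 lower (9.68% each, backgrounds 6.98% and 2.41%), with a median of -0.01. Tra2a (0.58), Hnrnpl (0.49) and Hnrnpu (0.38) rose. Rbfox2, a neuronal splicing factor, read 537, 563 and 447 at 6 h and 344, 372 and 305 at 12 h, a log2 change of -0.60 (adjusted p = 0.011). Clk4, a kinase of SR proteins, fell by 0.305, and Srsf3, an SR protein, fell by 0.25, on the log2 scale. With quantile normalization 3 were higher and 8 lower, against 1117 and 1166 of all 27022 probe sets. Tra2a and Hnrnpl were called without any 1 of the arrays, whereas the lower count was 0 without replicate 2 of 6 h and 1 without any 1 of the others. Among 26 cell cycle genes 0 rose and 1 fell (3.85%, background 2.41%). It was Ccnd2, which read 437, 1100 and 530 and then 411, 405 and 411, and its change was -0.24 (adjusted p = 0.41) without the 6 h array that stood apart.

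Several marker lists of cell types had no called gene. Endothelial (11 tested), mural (8), choroid plexus (6), microglia (13) and leptomeningeal fibroblast genes (14) had 0 called by limma. The leptomeningeal genes had a median of -0.39 with all 14 changes below 0, their sums ranged from 3660 to 8140 at 6 h and from 3450 to 5590 at 12 h, and the median was -0.14 without replicate 2 of 6 h. Of 15 interferon-responsive genes 0 were called. At an unadjusted p under 0.05 by limma these 6 lists held 0, 1, 1, 0, 1 and 0 genes. The 2 cold-inducible genes, the 3 red blood cell genes and the 1 white blood cell gene tested had 0 called as well, with 0, 1 and 0 at that unadjusted level.

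Of 10 oligodendrocyte lineage genes 2 rose (20%, background 6.98%), the lineage transcription factors Olig2 (0.52, adjusted p = 0.016) and Sox10 (0.83, adjusted p = 0.045). The summed level of the 10 genes ranged from 2490 to 2590 at 6 h and from 3040 to 3260 at 12 h. Olig2 lost its call without replicate 2 of 6 h, without replicate 3 of 6 h or without replicate 2 of 12 h, and Sox10 lost it without any 1 array. Of 14 astrocyte and radial glia genes 1 rose (7.14%, near the background of 6.98%), and the list median was 0.21, or 0.023 when the probe sets of each gene were averaged. The gene was Slc1a3, the glutamate transporter GLAST, which read 606, 699 and 710 at 6 h and 960, 1170 and 1080 at 12 h. The probe sets of Slc1a3 disagreed, since another of its 6 was called lower, with a log2 change of -0.94. Gfap and S100b had changes of 0.97 and 0.77 (adjusted p = 0.055 and 0.084). In the tanycyte and ependymal list 1 of 7 genes fell (14.3%, background 2.41%), and 5 had changes above 0. Crym fell by 0.60 on the log2 scale (adjusted p = 0.037, and 0.11 without replicate 2 of 6 h). Its call held in 1 of the 6 fits without an array.

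Some markers of neighbouring brain regions and of the hypothalamus varied widely between mice. The thalamic genes Gbx2, Lhx9 and Tcf7l2 had log2 changes of 1.86, 1.54 and 1.51 by their brightest probe sets and did not pass (adjusted p = 0.11, 0.14 and 0.10). Of the 8 thalamus markers 1 was called higher (12.5%, background 6.98%). Without replicate 2 of 6 h 0 were called higher and 1 was called lower. The higher count was 4 in a fit of the 6 oil arrays alone, where 1775 of 27022 probe sets were higher. It was 5 with the 15 oil arrays (2206 of all probe sets) or with array weights (3343 of all). The gene called with all arrays was Calb2, a calcium-binding protein of many neurons, which rose by 0.65 (adjusted p = 0.0095, and 0.056 without replicate 2 of 6 h). The 8 thalamus markers summed to 5370 to 5650 at 6 h and to 6770 to 7890 at 12 h, and to 5470 to 6260 and 5840 to 8310 in EB-treated mice. Lhx8, a LIM-homeobox gene of the basal forebrain, was listed here among the hypothalamus markers. Its levels were 23.6, 469 and 19.3 at 6 h and 315, 452 and 148 at 12 h (adjusted p = 0.15). Tbr1, a T-box factor of cortical neurons, read 6.16, 132 and 2.85 and then 59.0, 85.3 and 66.4 (adjusted p = 0.10). In both the array that stood apart was the high one at 6 h. Meis2, a homeobox gene, had the same form at 42.3, 703 and 29.1 and then 419, 439 and 371 (adjusted p = 0.052). Of 16 hypothalamus markers 1 rose (6.25%, near the background of 6.98%), and the list median was -0.01, with changes from -0.43 to 2.2. The 1 was Nkx2-2 (0.63, adjusted p = 0.044, and 0.30 without replicate 2 of 6 h). Of 8 cortex and hippocampus markers 1 fell (12.5%, background 2.41%). Fezf2 fell by 0.66 on the log2 scale (adjusted p = 0.033, and 0.17 without replicate 2 of 6 h). A list of 11 of the genes that the study examined further, which it chose on these samples, had 10 genes tested. Of these 1 rose (Hcrt, 10%, background 6.98%) and 0 fell, and 2 rose without replicate 2 of 6 h. The part of dissection in these changes was not tested.

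**Figure D4:**
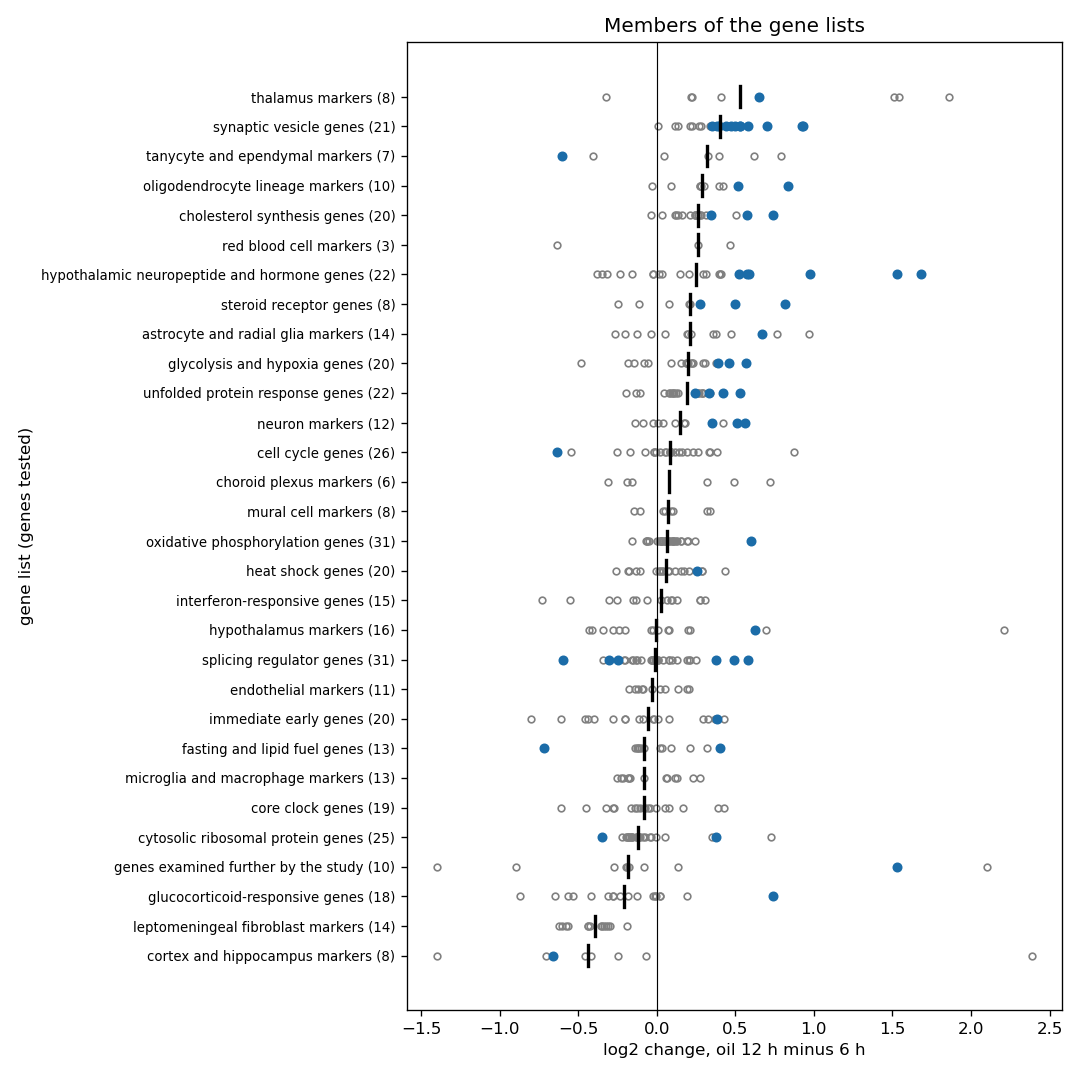
Log2 change from oil 6 h to oil 12 h (x axis) of each gene in 30 lists of at least 3 tested genes (y axis, number tested in brackets). Filled circles passed at an adjusted p under 0.05, grey circles did not, and black bars are list medians. Synaptic vesicle genes hold 12 filled circles and core clock genes none.

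The genes with the largest rise, by the rule given under the processing, lay between log2 changes of 1.20 and 2.02, with Hcrt among them. The firmest of them were bright or varied little. Selenow, a small selenoprotein of the antioxidant defence, read 634, 632 and 647 at 6 h and 1640, 1520 and 1680 at 12 h, a 2.53-fold rise (log2 1.34, standard error 0.18, adjusted p = 6.6e-05). Its other probe set was also called higher. Mapre3, a microtubule plus-end protein of neurons, read 152, 138 and 132 and then 312, 332 and 322, a 2.29-fold rise (adjusted p = 1.9e-05). Grin2d, an NMDA receptor subunit, read 217, 194 and 197 and then 499, 416 and 483, also 2.29-fold (adjusted p = 0.00035). In all 3 genes the gap between the groups was larger than the spread within either.

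Dimmer genes made up most of the others. Syndig1l, related to a regulator of synapse formation, read 17.6, 18.4 and 19.5 and then 54.6, 53.6 and 56.7 (log2 1.57, adjusted p = 0.0029). Mpp2, a membrane-associated scaffold protein, read 42.8, 24.2 and 32.2 and then 85.0, 84.8 and 96.1 (log2 1.46). Mark2, a kinase of microtubule-associated proteins, had a change of 1.23 and Lbh, a transcriptional cofactor, 1.66. These genes and Mab21l2 (1.32) were called without any 1 of the 6 arrays.

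The transcription factor genes Lhx9 and Pax6 headed the list but rested on few arrays. Lhx9, a LIM-homeobox factor of thalamus and of orexin neurons, read 14.6, 28.1 and 16.2 and then 105, 38.4 and 109 in its called probe set (log2 2.02, standard error 0.65, adjusted p = 0.047), and its other 3 probe sets were above 0 and not called. Pax6, a homeobox factor of forebrain patterning, read 17.0, 61.5 and 13.4 and then 89.7, 69.5 and 81.1 (log2 1.72, adjusted p = 0.023). Lhx9 kept its call in 1 and Pax6 in 2 of the 6 fits without an array. Kif4, Crtc2, Tbrg4 and Gpr37l1 completed the group, each with 6 h arrays as low as 6.07 to 13.1 and calls in 2 to 4 of the 6 fits. With quantile normalization 13 of the 15 were called, and of their 12 other probe sets 12 had changes above 0 and 3 were called higher.

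The genes with the largest fall lay between -1.12 and -1.93. Sypl, Dyrk1a, Wdr33, Sh3rf1, Dnajc6, Mbp, Rgs4 and Crkl read 108 or less in every oil array of both times. Sypl, a relative of synaptophysin, read 74.8, 88.7 and 84.6 at 6 h and 21.6, 58.8 and 20.3 at 12 h (log2 -1.48, standard error 0.30, adjusted p = 0.0027). Dyrk1a, a protein kinase, read 71.3, 84.1 and 56.2 and then 25.5, 41.1 and 17.7 (log2 -1.40, adjusted p = 0.0033). Wdr33, of the mRNA 3′ processing complex, and Sh3rf1, a ubiquitin ligase, had changes of -1.17 and -1.15. These 4 genes, with Dnajc6, Rhobtb3 and Mbp, were called without any 1 of the arrays. Ylpm1, Impact and Crkl were called in 3 of the 6 such fits, and Mroh1, Cct3 and Ppp1r12a in 2. Of the 15 genes 9 stayed called without replicate 3 of 6 h, and 9 without replicate 3 of 12 h. For Rgs4 and Crkl replicate 2 of 12 h read 85.3 and 23.1, close to the 6 h values of 86.9 and 23.5.

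Other probe sets did not follow the lower ones. The 15 lower genes had 42 others, of which 21 had a change below 0, 3 were called lower and 2 were called higher. Mbp, the myelin basic protein, was called lower by 1 probe set at 65.0, 38.5 and 39.0 and then 20.4, 21.8 and 18.7, whereas its brightest had a change of 0.28 (adjusted p = 0.13). The lower genes had their lowest mean of the 5 oil groups at 12 h in 15 of 15 cases, against 20.3% of all probe sets. They were chosen by their fall at 12 h, which favours this, so it carries no test.

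**Figure D5:**
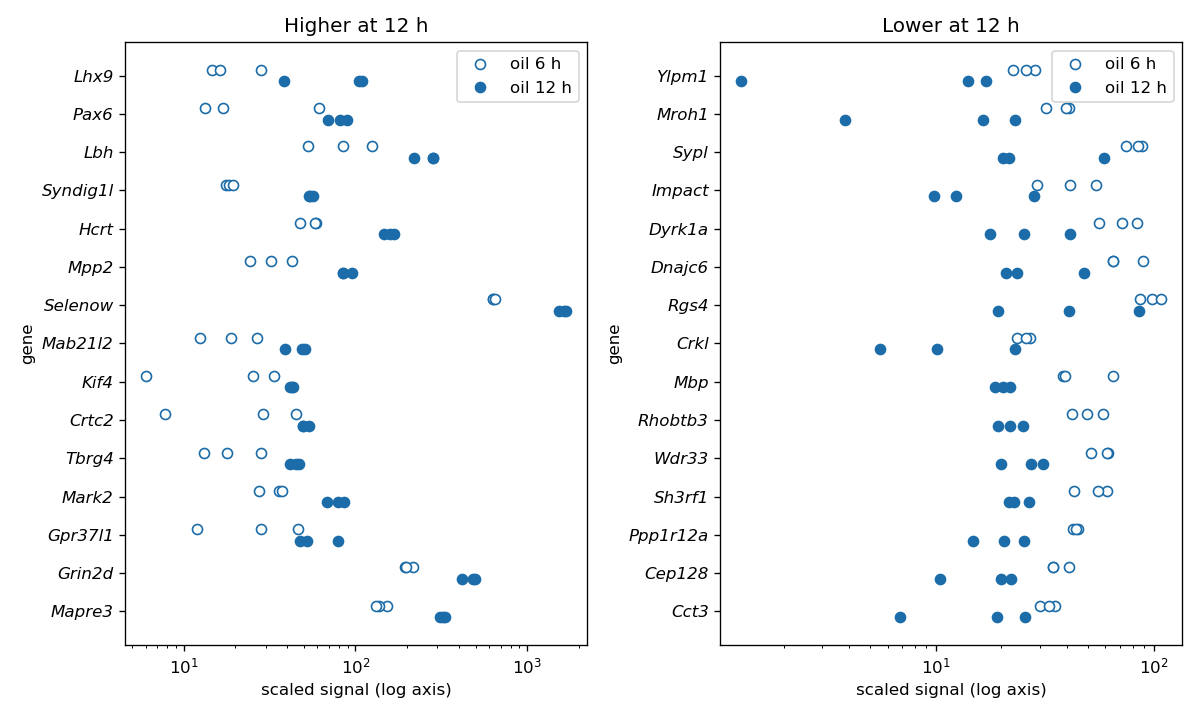
Scaled signal on a log axis (x) of the 15 genes with the largest rise (left) and the 15 with the largest fall (right) from 6 h to 12 h, in order of the change (y). Open circles are the 3 oil arrays at 6 h and filled circles those at 12 h. Selenow moves from 632–647 to 1520–1680, whereas many lower genes lie below 100 at both times.

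The same changes were looked for in EB-treated mice, which share no array with the oil groups. They share the scaling, the filter, the estimate of spread and the brighter signal at 12 h. In these mice 371 probe sets were higher at 12 h than at 6 h (1.37%) and 187 were lower (0.692%). These EB counts rested on single arrays. They were 1132 higher and 301 lower without replicate 3 of 6 h, 670 higher without replicate 3 of 12 h, 30 and 21 without replicate 1 of 6 h, 1 and 1 without replicate 1 of 12 h, and 0 and 0 without replicate 2 of 6 h. Of the 1885 probe sets higher in oil-treated mice, 93.9% had an EB change above 0, against 57.5% of all probe sets, and 188 were called (9.97% of the oil calls and 50.7% of the EB calls). Of the 650 lower ones 89.5% had an EB change below 0, against 42.5% of all, and 74 were called (11.4% and 39.6%). There were 0 probe sets called in opposite directions. Across probe sets the correlation of the changes was 0.42, a description over probe sets that are not independent.

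The difference between the changes of oil-treated and EB-treated mice was tested as an interaction and was called for 0 of 27022 probe sets (0%) by limma, with 1928 at an unadjusted p under 0.05 and a smallest adjusted p of 0.221. This does not show that the changes were alike. Hcrt, for example, read 44.1, 124 and 55.2 at 6 h and 86.6, 63.6 and 51.6 at 12 h after EB, a log2 change of -0.03, and its difference from the oil change was 1.56 (standard error 0.48, adjusted p = 0.58 in limma). Pmch had an EB change of 0.07 and Trh of -0.14, whereas Crh had 1.12 and Oxt 0.48. Of the 22 peptide genes 0 were called in EB-treated mice, where 1.37% of all probe sets were called higher and 0.692% lower. A count of 0 among 22 is near these shares. Of the 21 synaptic vesicle genes 5 were called higher after EB (background 1.37%), Syn1 and Syp with changes of 0.67 and 0.565.

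Replicate 3 of the EB group at 6 h stood apart from its group in some of these genes, which were picked after their values were seen. It had a median of 44.0, the highest of the 6 h arrays, against 35.3 and 35.4 in the others. It held Selenow at 1700, against 721 and 680 in the other EB arrays of 6 h, Syp at 1520 against 898 and 984, and Mapre3 at 279 against 162 and 160. These levels were near those of 12 h, which were 1390 to 1620 for Selenow and 1410 to 1780 for Syp after EB. In arrays picked for a like median, Syp read 838 in replicate 3 of oil at 1 h (median 43.8) and 937 in replicate 2 of oil at 3 h (median 41.9). The part of array brightness in these levels was not tested.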

How the data were processed

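Total RNA of the whole hypothalamus was hybridized to Affymetrix whole-genome mouse arrays, 1 mouse per array. The authors deposited MAS5 signal intensities on a linear scale, 1 value per probe set and array. Neither the software version nor a target for scaling was found in the sources used here. All array columns belonged to a sample (0 without). No 2 arrays were identical, and the number of arrays limits the precision. Samples were grouped by their titles.

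From the 45101 probe sets, 64 controls were left out. Signals were multiplied so that every array had the average of the 30 medians, floored at 1 and expressed as log2. Dropping the dimmest 40% of probe sets (mean log2 over all arrays) left 27022, 22524 with 1 gene symbol in the platform annotation, 562 with several and 3936 with none. Symbols were compared with RefSeq by gene identifier for 22462 probe sets, and 0 were changed. A linear model with 1 mean for each of the 10 groups was fitted over the 30 arrays in limma 3.58.1 (R 4.3.3; eBayes with a trend on signal), with Benjamini-Hochberg adjustment over all probe sets kept and a threshold of 0.05. The script was tested on simulated data. Array quantities were compared by a two-sided exact permutation test.

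Genes were named by a rule: in each direction up to 15 genes by size of change, if called and if the 3 and 3 arrays did not overlap, 1 probe set per gene with a single symbol and a gene name other than a clone or predicted model, and from each list all called genes and then the brightest up to 4 genes. The study's own genes are read by their brightest probe set. Other list members given with values, and Slc1a3, Mbp and Malat1 probe sets, were chosen after their values were seen. The lists and the comparison were chosen with earlier results of these data known, so their counts are descriptions. Alternatives covered the scaling, the floor, the filter, array weights, the arrays in the fit and the trend. They also covered the replicate number as a block, leaving out each array and a test per probe set modelled on the methods' ANOVA. Scaling to the hybridization controls was added after seeing the data.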

Additional observations from a re-analysis of the deposited data

How the results depend on the processing

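The counts for oil-treated mice depended most on the scaling and on single arrays. The cause was not tested. With 1885 probe sets higher and 650 lower as reported, quantile normalization gave 1117 and 1166, scaling to a 2% trimmed mean 1036 and 1513 (40.6% of called probe sets higher), no scaling 24462 and 3 (100% higher, median of all probe sets 0.88), scaling to the hybridization controls, chosen after seeing the data, 15923 and 65 (99.6% higher, median 0.43), and array weights 3343 and 1440. A test per probe set on scaled linear signals, without spread shared between probe sets, gave 1765 higher and 369 lower. It pools the spread of all groups like the ANOVA of the methods, but with Benjamini-Hochberg adjustment in place of the Bonferroni test. A fit of the 6 oil arrays alone gave 1775 higher and 444 lower, of which 1476 and 364 were among those reported. Leaving out 1 array gave 622 to 1584 higher and 193 to 686 lower. For EB-treated mice the higher and lower counts were 239 and 368 with quantile normalization, 241 and 477 with trimmed means, 21515 and 8 without scaling, 3041 and 124 with the hybridization controls, 209 and 107 without a filter and 1383 and 466 with array weights, and 0 to 1132 and 0 to 301 without 1 array. The interaction was called for 1 probe set with array weights and for 0 to 3 without 1 array. Probe sets at 2-fold or more numbered 8400 without scaling, 1669 without a filter and 76 to 117 without 1 array, and those at 0.5-fold or less 1, 2053 and 42 to 125. Single genes turned direction without scaling (Lpl 0.108, Ccnd2 0.191, Rps15 0.475, Srsf3 0.576, Rbfox2 0.226, Clk4 0.519, Crym 0.222, Fezf2 0.164) and with the hybridization controls (Rps15 0.02, Srsf3 0.121, Clk4 0.0636), because all probe sets shifted upward there. The replicate numbers did not pair the arrays (correlation of same-numbered deviations -0.093, 0.069 and 0.056), and the fit with a replicate block, as a paired analysis, gave 1889 higher and 688 lower. Of the 84 called genes that were named, 65 remained called with quantile normalization and 40 to 60 without 1 array. Levels near the smallest mean signal kept, 21.9, are the least precise.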

Other observations

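Probe sets of a single transcript could move differently. Malat1, a nuclear long non-coding RNA named here after its values were seen, had 7 probe sets past the filter. Of these 4 were called lower at 12 h in oil-treated mice, with log2 changes of -0.75, -0.59, -0.77 and -0.52, and 1 had a change of 0.71 that did not pass (adjusted p = 0.0987 in limma). For Map1b, a microtubule-associated protein of growing axons, also chosen after its values were seen, 1 of 3 probe sets was called lower (-1.08), whereas the brightest had a change of -0.23 (adjusted p = 0.133). No cause was tested.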
